A study of Mus musculus with 4 samples.

Results

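The genes described here are the forkhead factors Foxo1, Foxo3 and Foxo4, the associated genes Bcl6 and Txnip, and the transforming growth factor beta genes Tgfb1, Tgfbr1, Tgfbr2, Smad3 and Smad7. They were chosen by name as a set of FoxO and TGF-beta quiescence genes, and all 10 were measured, among 19938 genes in all. Each had 1 probe set that carried its symbol alone. Expression was profiled in mouse leukemia stem cells on 4 Affymetrix whole-transcript arrays, and the values are RMA expression on the log2 scale, so that a difference of 1 is a 2-fold change. The WT group had 2 samples from marrow of C57BL/6 (B6) donors, and the Hif1a-/- group had 2 samples from Hif1a-/- donors, with the strain given as C57BL/6 (B6) and the age as 8 weeks for all 4. In both groups the donors had received 5-fluorouracil, their marrow had been infected with a retrovirus that carries BCR-ABL and GFP, and the cells had been given to B6 recipients, so the recipients' own cells were of WT origin in both groups. The leukemia stem cells were sorted from recipient marrow on day 14 as GFP+ cells without lineage markers and with c-Kit and Sca-1. The labels do not say how Hif1a was deleted or whether animals were pooled. They call the samples biological replicates without mention of separate animals, so p-values reflect only how far these samples lay apart, which may be technical.

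FoxO factors are forkhead transcription factors that enter the nucleus and turn on cell cycle inhibitors and stress defence genes when the kinase AKT is inactive, and that are held in the cytoplasm when growth factor signalling, or BCR-ABL, keeps AKT active. TGF-beta is a secreted ligand that joins a type II and a type I receptor kinase, which phosphorylate receptor Smads, and in the bone marrow it is known to hold blood stem cells in quiescence. In chronic myeloid leukemia, TGF-beta, Foxo3 and Bcl6 have been described as factors that keep leukemia stem cells alive and dividing slowly.

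The promoters of Txnip, Bcl6 and Tgfbr2 are shown because these 3 genes had the largest differences between genotypes among the 10. RefSeq promoter entries of mouse build GRCm38.p6 matched 8 of the 10 genes, with 10 start sites, and there was no entry for Foxo4 and Smad7. Each sequence is the 250 bases before a start site, written 5′ to 3′ on the gene's strand, with capitals at matches to the hypoxia response core ACGTG or its variant GCGTG, the FoxO site GTAAACA, the Smad element core CAGAC and the STAT5 site TTCNNNGAA, searched on both strands. The Txnip window is chr3:96557707-96557956 on the plus strand, the Tgfbr2 window chr9:116175364-116175613 on the minus strand, and the Bcl6 windows, also on the minus strand, are chr16:23988853-23989102 for its upstream start and chr16:23981284-23981533 for its downstream start.
Txnip: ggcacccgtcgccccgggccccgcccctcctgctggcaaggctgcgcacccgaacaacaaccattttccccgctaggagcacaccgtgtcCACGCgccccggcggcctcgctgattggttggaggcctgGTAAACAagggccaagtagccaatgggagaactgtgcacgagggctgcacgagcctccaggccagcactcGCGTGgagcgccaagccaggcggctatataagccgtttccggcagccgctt
Bcl6 upstream start: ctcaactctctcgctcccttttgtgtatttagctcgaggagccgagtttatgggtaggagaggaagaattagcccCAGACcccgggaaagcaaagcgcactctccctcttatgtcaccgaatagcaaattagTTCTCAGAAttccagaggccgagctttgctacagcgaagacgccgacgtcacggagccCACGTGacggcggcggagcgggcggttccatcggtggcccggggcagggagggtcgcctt
Bcl6 downstream start: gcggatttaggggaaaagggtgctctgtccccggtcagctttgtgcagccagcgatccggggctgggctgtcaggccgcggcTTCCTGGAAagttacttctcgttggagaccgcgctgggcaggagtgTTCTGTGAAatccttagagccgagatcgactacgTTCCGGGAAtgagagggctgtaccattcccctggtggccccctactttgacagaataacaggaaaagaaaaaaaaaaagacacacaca
Tgfbr2: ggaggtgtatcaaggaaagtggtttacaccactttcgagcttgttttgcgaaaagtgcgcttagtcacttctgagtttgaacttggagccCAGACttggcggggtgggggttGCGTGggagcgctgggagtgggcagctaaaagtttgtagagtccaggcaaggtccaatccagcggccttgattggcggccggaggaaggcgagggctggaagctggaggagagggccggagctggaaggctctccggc

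The Txnip window held GTAAACA, with its first base 121 bases before the start, and 2 matches to GCGTG. The FoxO site was found in 3.17% of 32851 promoter windows of this length and in no other window of the 10 start sites. The upstream Bcl6 window held ACGTG on both strands at 1 place, where the overlapping matches form CACGTG, and it was the only 1 of the 10 windows with ACGTG, which 16.6% of all windows hold. The downstream Bcl6 window held 3 matches to TTCNNNGAA and the upstream window 1, against 7.02% of all windows with any match. GCGTG was present in the Tgfbr2 window and in 28.2% of all windows, and also in windows of Foxo1, Foxo3, Txnip, Tgfb1, Tgfbr1 and Smad3. CAGAC was present in the Tgfbr2 window, the upstream Bcl6 window and a Tgfbr1 window, and in 42.2% of all windows. These matches describe the letters of the windows, and no binding was measured.

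Differences between Hif1a-/- and WT leukemia stem cells were small for every one of the 10 genes, and none passed the test. All 10 had a lower mean in Hif1a-/- cells, with log2 differences from -0.24 for Txnip, or 1.18-fold lower, to -0.0098 for Smad7. A lower mean was found for 38.6% of all genes, and the median difference was -0.10 over the 10 genes and 0.03 over all genes. Among genes expressed at or above the median, which included 9 of the 10, the share with a lower mean was 46.0%. In limma with Benjamini-Hochberg adjustment over all genes, 0 of the 10 had an adjusted p under 0.05, as did 0% of all genes, and 0 of the 10 had an unadjusted p under 0.05, beside 1.68% of all genes. The smallest unadjusted limma p among the 10 was 0.173, for Txnip, and all their adjusted p were 0.999.

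**Figure D1:**
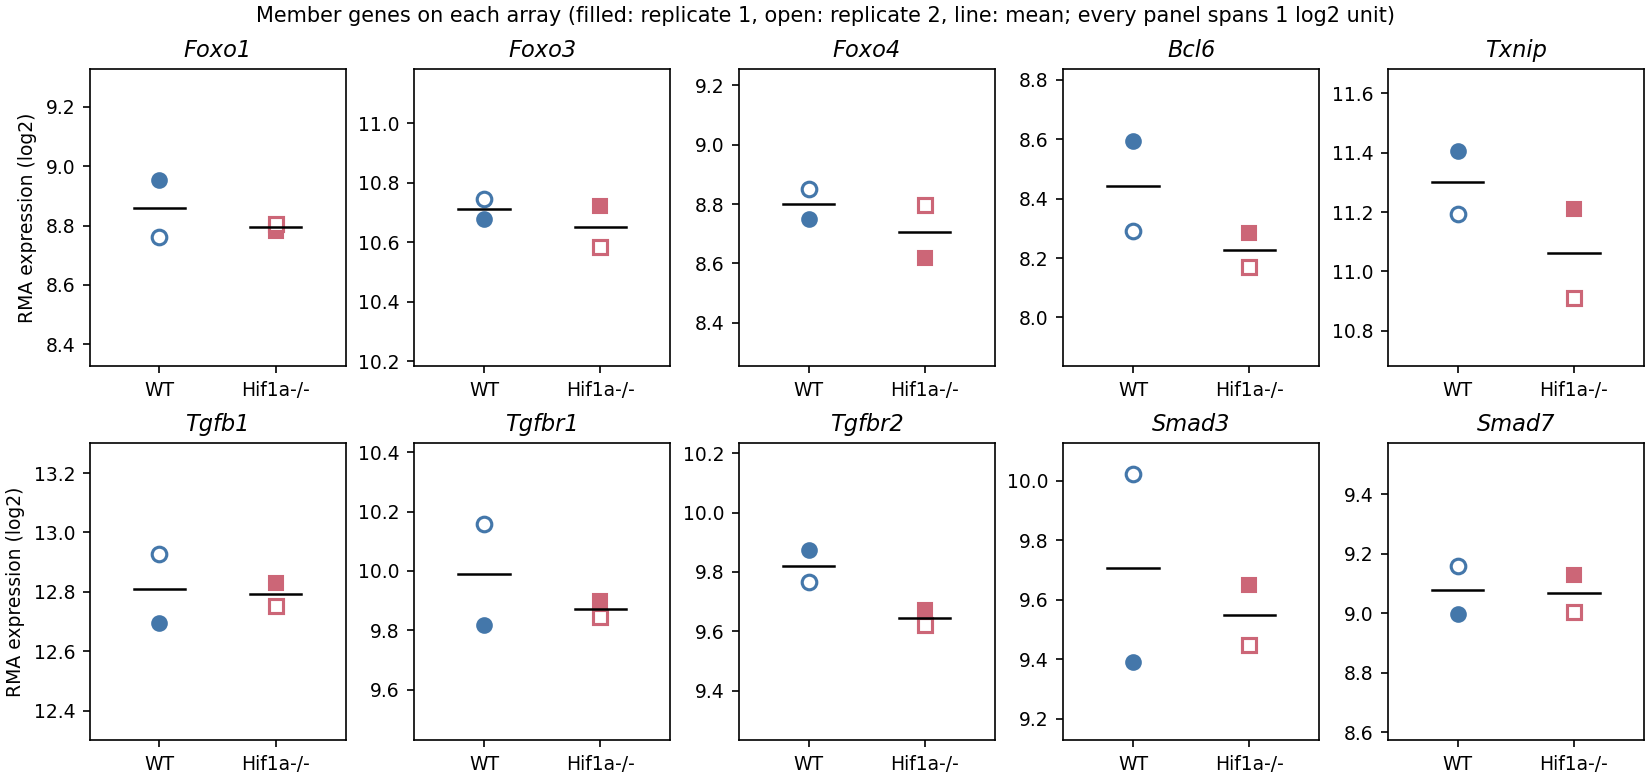
Each panel plots 1 gene, with RMA expression (log2) on the vertical axis, WT arrays as blue circles, Hif1a-/- arrays as red squares, replicate 1 filled, replicate 2 open and a line at the mean of 2 arrays. The highest array was a WT array in all 10 panels, and the groups lay apart only for Bcl6 and Tgfbr2.

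The 3 FoxO genes read nearly alike in both genotypes. Foxo1, a forkhead factor of metabolism and stem cell maintenance, read 8.95 and 8.76 on WT replicates 1 and 2 and 8.78 and 8.81 on Hif1a-/- replicates 1 and 2. Both Hif1a-/- arrays thus lay between the WT arrays, and the difference was -0.064 ± 0.13 (SE, limma), with a 95% interval from -0.38 to 0.25. Foxo3, the family member most tied to blood stem cell quiescence, read 10.68 and 10.74 in WT and 10.72 and 10.59 in Hif1a-/- cells. The groups overlapped, with Hif1a-/- replicate 2 the lowest, and the difference was -0.059 ± 0.13 (SE, limma). Foxo4, the X-linked member, read 8.75 and 8.85 in WT and 8.62 and 8.80 in Hif1a-/- cells, also with overlap, and differed by -0.092 ± 0.13 (SE, limma). The intervals of the 3 genes reached at most 1.33-fold lower and 1.19-fold higher in Hif1a-/- cells. They rest on 2 arrays per genotype, whose spread may be technical, so these limits hold for these samples only. Foxo1 turned to 0.032 without WT replicate 1 and Foxo3 to 0.0088 without Hif1a-/- replicate 2, while Foxo4 gave -0.0024 without Hif1a-/- replicate 1. These arrays measure mRNA and carry no information on where the FoxO proteins lay in the cell.

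Bcl6 and Txnip, both known to be induced by FoxO factors, showed the larger differences of the set. Bcl6, a transcriptional repressor that limits p53 and Arf, read 8.59 and 8.29 in WT and 8.28 and 8.17 in Hif1a-/- cells. The groups did not overlap, although Hif1a-/- replicate 1 nearly reached WT replicate 2. The difference was -0.22 ± 0.15 (SE; 95% interval -0.57 to 0.14), and limma gave it an unadjusted p of 0.194. Txnip, an arrestin that binds thioredoxin and lowers glucose uptake, read 11.41 and 11.19 in WT and 11.21 and 10.91 in Hif1a-/- cells. Hif1a-/- replicate 1 lay just above WT replicate 2, so the groups overlapped, and the difference was -0.24 ± 0.16 (SE), which gave a 95% interval from -0.62 to 0.14. Without WT replicate 2 the differences were -0.37 for Bcl6 and -0.35 for Txnip. Without WT replicate 1 they were -0.065 and -0.13, so the size of both rests on the WT array used. Txnip gave -0.39 without Hif1a-/- replicate 1 and -0.091 without Hif1a-/- replicate 2.

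The ligand and the receptors of TGF-beta followed no single pattern over the arrays. Tgfb1, the ligand gene, read 12.69 and 12.93 in WT and 12.83 and 12.75 in Hif1a-/- cells. Both Hif1a-/- arrays lay between the WT arrays, and the difference of -0.019 ± 0.14 (SE, limma) turned to 0.097 without WT replicate 2, to 0.019 without Hif1a-/- replicate 2 and to 0.018 after a second quantile normalization. Tgfbr1, the type I receptor kinase that phosphorylates Smad2 and Smad3, read 9.82 and 10.16 in WT and 9.90 and 9.85 in Hif1a-/- cells, again with both Hif1a-/- arrays between the WT arrays. Its difference was -0.12 ± 0.15 (SE, limma), or -0.28 without WT replicate 1 and 0.053 without WT replicate 2. Tgfbr2, the type II receptor that binds the ligand, read 9.88 and 9.77 in WT and 9.67 and 9.62 in Hif1a-/- cells. The groups did not overlap, and the difference was -0.17 ± 0.12 (SE; 95% interval -0.47 to 0.12; unadjusted p 0.204 by limma). It ranged from -0.23 without WT replicate 2 to -0.12 without WT replicate 1, and kept its sign with any 1 array left out.

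Of the intracellular members, Smad3 varied widely between the WT arrays and Smad7 differed little between genotypes. Smad3, the receptor Smad that carries the signal to the nucleus, read 9.39 and 10.02 in WT and 9.65 and 9.45 in Hif1a-/- cells. The WT arrays were thus the lowest and the highest of the 4, 0.63 apart, and the genotype difference of -0.16 ± 0.22 (SE, limma) was smaller than that gap. It was -0.48 without WT replicate 1 and turned to 0.16 without WT replicate 2. Smad7, the inhibitory Smad that TGF-beta itself induces and that recruits ubiquitin ligases to the receptor, read 8.998 and 9.16 in WT and 9.13 and 9.01 in Hif1a-/- cells. Both Hif1a-/- arrays again lay between the WT arrays, and the difference was -0.0098 ± 0.13 (SE, limma), turning to 0.070 without WT replicate 2 and to 0.053 without Hif1a-/- replicate 2. The 95% interval of Smad7 ran from -0.33 to 0.31, or 1.25-fold lower to 1.24-fold higher.

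**Figure D2:**
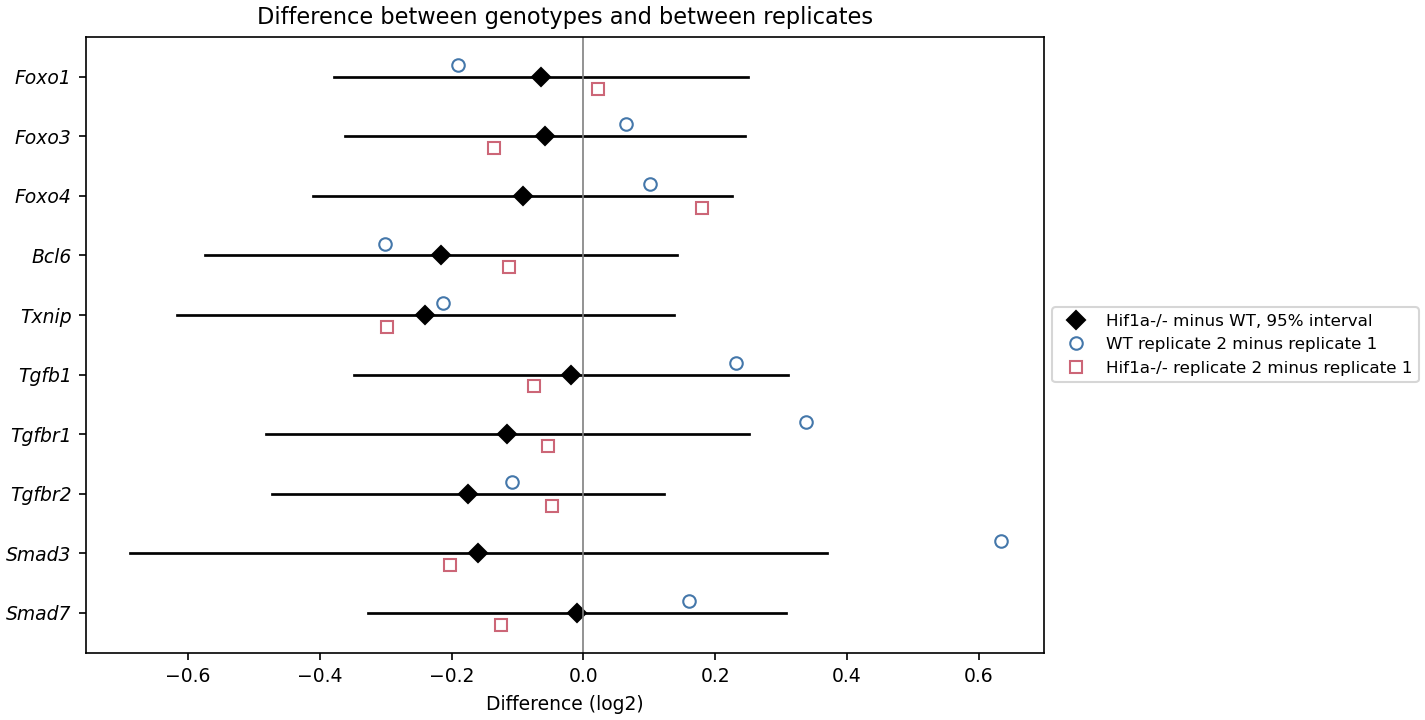
Differences in RMA expression (log2, horizontal axis) are plotted for each of the 10 genes: black diamonds with lines are Hif1a-/- minus WT with the 95% interval of limma, blue circles WT replicate 2 minus replicate 1, and red squares Hif1a-/- replicate 2 minus replicate 1. Every interval spans 0, and the WT arrays differed most for Smad3, by 0.63.

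Set against the spread between replicates, the genotype difference exceeded the gap within both genotypes for Tgfbr2 alone, 1 of the 10 genes, beside 14.6% of all genes. The groups did not overlap for 2 of the 10, both lower in Hif1a-/- cells, beside 9.05% of all genes in that direction and 15.7% in the other. The median size of the gap between WT arrays was 0.20 over the 10 genes, against 0.10 for the difference between genotypes, and it was 0.12 between Hif1a-/- arrays. The highest of the 4 arrays was a WT array for all 10 genes, as for 54% of all genes. It was WT replicate 1 for 4 of them (Foxo1, Bcl6, Txnip and Tgfbr2) and WT replicate 2 for 6 (Foxo3, Foxo4, Tgfb1, Tgfbr1, Smad3 and Smad7). The number of genes with a lower mean was 9 without WT replicate 1, 6 without WT replicate 2, 10 without Hif1a-/- replicate 1 and 7 without Hif1a-/- replicate 2.

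**Figure D3:**
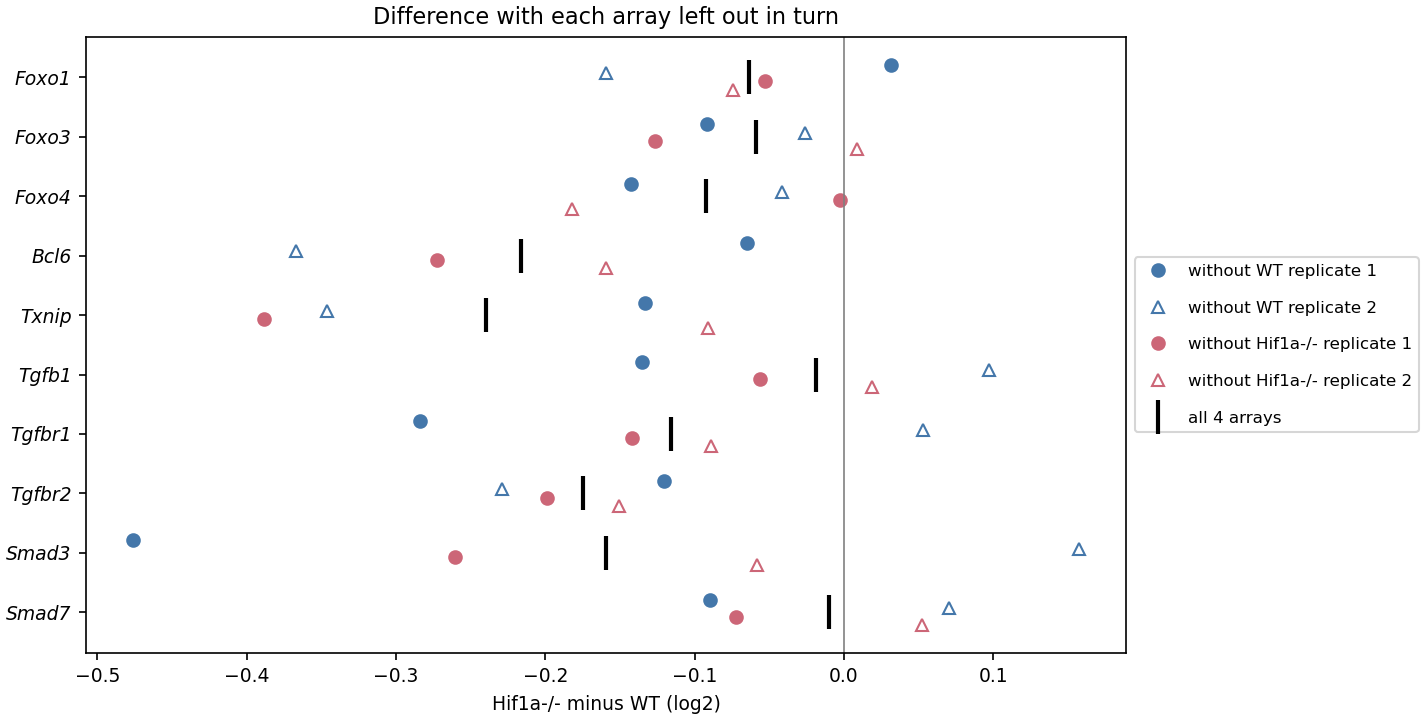
The difference Hif1a-/- minus WT (log2, horizontal axis) is plotted for each of the 10 genes with all 4 arrays (black bar) and with each array left out in turn (blue for WT, red for Hif1a-/-, filled circle for replicate 1, open triangle for replicate 2). Bcl6, Txnip, Foxo4 and Tgfbr2 stayed below 0 in every case, and Smad3 ran from -0.48 to 0.16.

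The WT arrays also differed in stem and progenitor and in lineage genes. Of 7 stem and progenitor surface markers, 6 were measured, and of these only Kit was sorted on, since Ly6a, the gene of Sca-1, was not analysed here. Their mean, which Cd34 and Flt3 moved most, read 9.48 and 10.39 on WT replicates 1 and 2 and 9.80 and 10.01 on Hif1a-/- replicates 1 and 2. Of 10 lineage and mature blood cell markers, 8 were measured, with means of 9.63 and 8.71 in WT and 9.15 and 9.03 in Hif1a-/- cells. Ly6g, a neutrophil surface gene that the sort should leave behind, read 13.10 and 10.64 in WT and 11.74 and 11.64 in Hif1a-/- cells, and the progenitor gene Cd34 read 10.31 and 12.29 in WT and 10.70 and 11.70 in Hif1a-/- cells. Kit read 10.32 and 11.07 in WT and 10.95 and 10.61 in Hif1a-/- cells. Smad3, Tgfbr1, Tgfb1, Foxo3, Foxo4 and Smad7 were higher on the WT array with more Cd34 and Kit signal. Bcl6, Txnip, Foxo1 and Tgfbr2 were higher on the WT array with more Ly6g signal. Any gene must be higher on 1 of 2 arrays, so this split is a description, and no link was tested. Between the Hif1a-/- arrays, Cd34 was higher on replicate 2. Kit was lower there, as were Smad3, Tgfbr1, Tgfb1, Foxo3 and Smad7, while Foxo4 was higher. Ly6g, Bcl6, Txnip and Tgfbr2 were lower there too, and Foxo1 was higher. Markers of some further cell types differed between genotypes. Over all genes, the groups lay apart with Hif1a-/- above for 15.7% and below for 9.05%. Granulocyte and monocyte markers averaged 12.25 and 11.65 in WT and 11.93 and 11.93 in Hif1a-/- cells, a mean difference of -0.017. Lymphoid markers averaged 8.34 and 7.71 in WT and 8.02 and 7.80 in Hif1a-/- cells, a mean difference of -0.12. Hif1a-/- lay below in 1 of 13 measured granulocyte and monocyte and 2 of 11 measured lymphoid markers, and above in 0. Stromal and endothelial markers had a mean difference of -0.0091, with Hif1a-/- above in 2 and below in 2 of 10. The mean of 7 measured of 10 erythroid markers read 10.19 and 9.99 in WT and 10.67 and 10.45 in Hif1a-/- cells, and in 5 the groups lay apart with Hif1a-/- above. The mean of 10 mast cell and basophil markers read 11.63 and 11.61 in WT and 11.01 and 11.36 in Hif1a-/- cells, with Hif1a-/- below in 3. The mean of 7 measured of 10 megakaryocyte and platelet markers read 9.22 and 9.48 in WT and 9.37 and 9.69 in Hif1a-/- cells, with Hif1a-/- above in 3. The part of these markers in the values of the members and of the pathway genes was not tested, and in such bulk samples fewer cells of a type and less RNA per cell cannot be told apart. Array medians over all genes ran from 8.53 to 8.57. Hif1a itself read 11.34 and 11.50 in WT and 11.25 and 11.39 in Hif1a-/- cells, with overlap, and since the deleted exons are not given, this probe set checks the labels only weakly.

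Around the members, 9 lists of pathway genes with 172 distinct measured genes were read in the same fit. Of these, 0 passed the adjusted threshold, and 5 had an unadjusted limma p under 0.05, all lower in Hif1a-/- cells. That is 2.91% of the lists' genes, beside 1.68% of all genes in either direction and 0.978% of all genes in the lower direction. The groups lay apart with Hif1a-/- below for 29 of the 172 (16.9%) and above for 9 (5.23%), beside 9.05% and 15.7% of all genes. A lower mean was found for 63.4% of the 172. It was found for 38.6% of all genes and for 46.0% of those expressed at or above the median. The shares with groups apart were not taken among brighter genes alone, and the lists were chosen with earlier results of these data known.

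**Figure D4:**
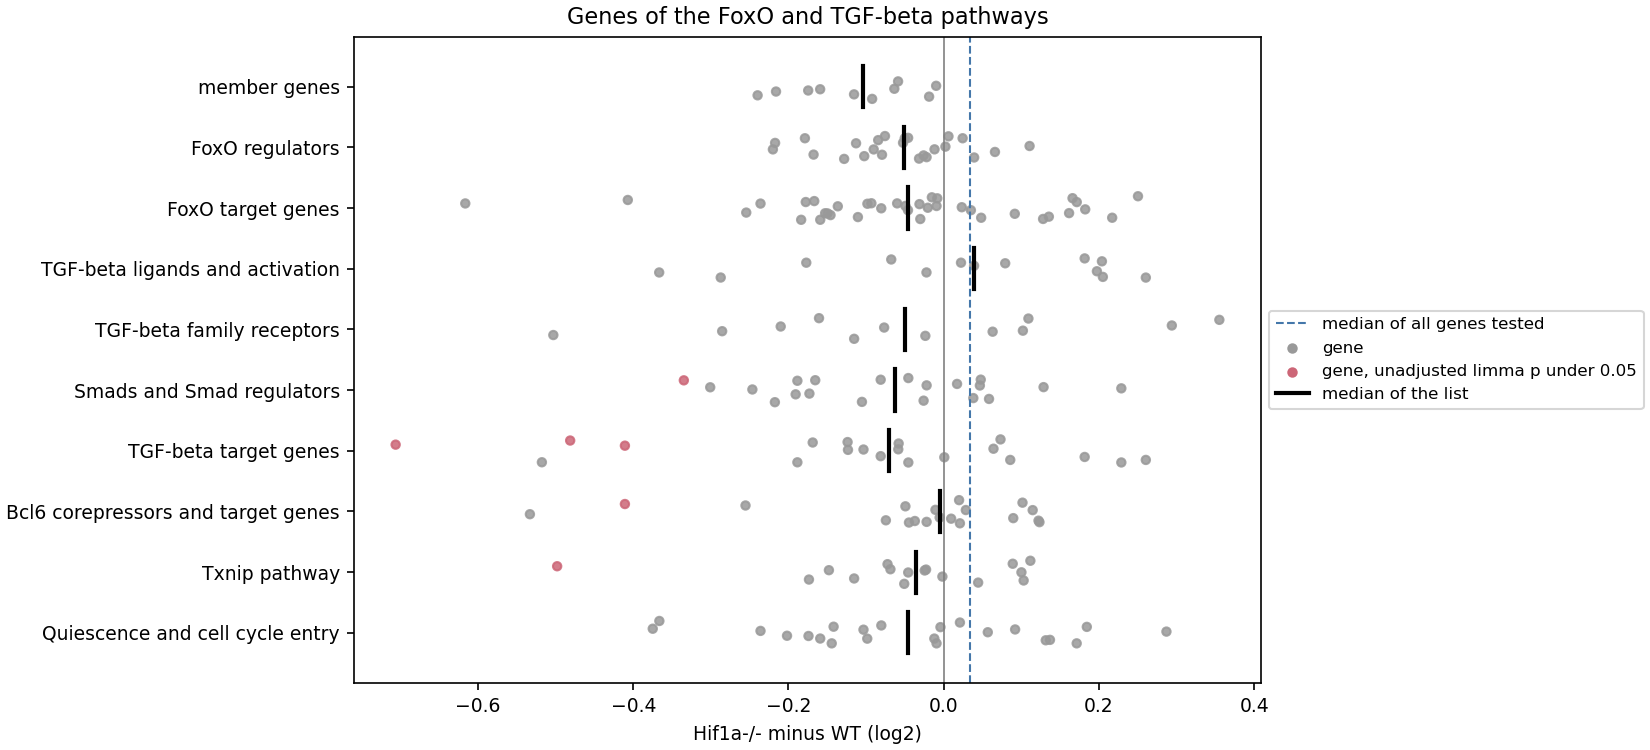
Each point is 1 gene, placed by its difference Hif1a-/- minus WT (log2, horizontal axis) and by list (vertical axis), with red for an unadjusted limma p under 0.05, a black bar at the median of the list and a dashed line at the median of all genes. The medians of 8 of the 9 pathway lists lay below 0, and that of the TGF-beta ligands and activation list at 0.04.

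Genes upstream of the FoxO factors leaned lower by little. Of 24 measured FoxO regulators, 18 had a lower mean and 6 a higher one, with a median of -0.05 and 0 genes with an unadjusted limma p under 0.05. Pik3r1, the regulatory subunit of PI3 kinase, read 11.40 and 11.45 in WT and 11.20 and 11.21 in Hif1a-/- cells, a difference of -0.22 ± 0.12 (SE, limma) with groups apart. Sgk3 and Pdpk1, an AKT-related kinase and the kinase that activates AKT, differed by -0.22 and -0.17, and in both the groups lay apart, with gaps between replicates of at most 0.098. Among 37 measured FoxO target genes, 25 had a lower and 12 a higher mean, the median was -0.05, and 0 had an unadjusted limma p under 0.05. Cdkn1b, the cell cycle inhibitor p27, read 10.42 and 10.19 in WT and 10.12 and 10.01 in Hif1a-/- cells, a difference of -0.24 with groups apart (-0.12 without WT replicate 1, and -0.42 as the mean of its probe sets). Tnfsf10, the death ligand TRAIL, differed by -0.25 with groups apart, or by -0.14 without WT replicate 2. Il7r, the interleukin 7 receptor, differed by -0.62. Its value of 10.70 on WT replicate 1 stood above 9.65, 9.53 and 9.58 on the others, and without that array the difference was -0.088. Il7r is also in the lymphoid marker list, whose means were 8.34 and 7.71 in WT and 8.02 and 7.80 in Hif1a-/- cells. The part of lymphoid cells in its value was not tested.

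The ligand and receptor genes of the TGF-beta family went both ways, and 0 of either list had an unadjusted limma p under 0.05. Of 13 genes of ligands and their activation, 8 had a higher mean. The groups lay apart with Hif1a-/- above in 4 and below in 1, beside 15.7% and 9.05% of all genes. The list median was 0.04, or -0.068 over the 7 genes expressed at or above the median of all genes. Ltbp3, which stores latent TGF-beta in the matrix, read 9.15 and 9.21 in WT and 9.36 and 9.52 in Hif1a-/- cells, a difference of 0.26 ± 0.13 (SE, limma). Itgav and Itgb6, subunits of integrins that free the active ligand, differed by -0.29 and 0.20 with groups apart. Itgav differed by -0.15 without WT replicate 2. Itgb6 was dim, at percentile 10.7 of gene means, and differed by 0.14 after a second quantile normalization. Of 12 other receptors of the family, 7 had a lower and 5 a higher mean, with a median of -0.05. Tgfbr3, the coreceptor betaglycan, Acvrl1, a type I receptor, and the BMP receptor gene Bmpr1a differed by 0.36, -0.29 and -0.50, and without WT replicate 1 by -0.010, 0.032 and -0.017.

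Smad partners and TGF-beta target genes held 4 of the 5 genes with an unadjusted limma p under 0.05. Of 20 Smads and Smad regulators, 13 had a lower and 7 a higher mean, with a median of -0.06. Smurf1, a ubiquitin ligase that works with Smad7 on the receptor, read 9.90 and 9.83 in WT and 9.59 and 9.47 in Hif1a-/- cells. Its groups lay apart, and the difference was -0.33 ± 0.13 (SE), with an unadjusted limma p of 0.0342. That limma p was 0.0647 among genes expressed at or above the median and 0.0839 with a variance trend, so it passed 0.05 only in some settings. Smad4, the common partner of receptor Smads, differed by -0.22 (-0.10 without WT replicate 2), and Smad6, the other inhibitory Smad, by 0.23, in both cases with groups apart. Of 20 measured TGF-beta target genes, 13 had a lower and 7 a higher mean, with a median of -0.07, and 3 had an unadjusted limma p under 0.05.

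These 3 targets were Itgae, Bhlhe40 and Id2, and each also belongs to other programs. Itgae, the integrin subunit CD103 that TGF-beta induces in lymphocytes and that also marks a class of dendritic cells, read 9.62 and 9.64 in WT and 8.99 and 8.86 in Hif1a-/- cells. The groups lay well apart, and the difference was -0.71 ± 0.13 (SE), with an unadjusted p of 0.00104 in limma, which became 0.999 when adjusted over all genes. Bhlhe40, a repressor that hypoxia also induces, read 11.42 and 11.25 in WT and 10.89 and 10.81 in Hif1a-/- cells, a difference of -0.48 ± 0.13 (SE, limma). Id2, an inhibitor of basic helix-loop-helix factors, also listed among Bcl6 targets and needed for dendritic cells, read 12.17 and 11.92 in WT and 11.60 and 11.68 in Hif1a-/- cells, a difference of -0.41 ± 0.14 (SE, limma). All 9 dendritic cell markers were measured, with means of 9.77 and 9.89 on the WT and 9.44 and 9.48 on the Hif1a-/- arrays. Their groups lay apart in 7, with Hif1a-/- below in 5 and above in 2, beside 9.05% and 15.7% of all genes. Xcr1 and Clec9a, defining markers of the dendritic cells that carry Itgae, differed by -0.82 and -0.75. Zbtb46 and Siglech, of the same marker list, went the other way, by 0.23 and 0.19 with groups apart. The part of these cells in the values of Itgae and Id2 was not tested.

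Genes around Bcl6 and Txnip showed 1 gene each with an unadjusted limma p under 0.05. Of 19 measured Bcl6 corepressors and targets, 10 had a lower and 9 a higher mean, with a median of -0.0052, and Id2 was the gene in question. Socs2, a cytokine signalling inhibitor, differed by -0.53 (-0.16 without WT replicate 2), and Ccr6, a chemokine receptor, by 0.10 (0.051 after a second quantile normalization). Of 16 genes of the Txnip pathway, 11 had a lower and 5 a higher mean, with a median of -0.04. Slc2a1, the glucose transporter that Txnip draws off the cell surface, read 11.77 and 11.68 in WT and 11.12 and 11.33 in Hif1a-/- cells. Its groups lay apart, and the difference was -0.50 ± 0.14 (SE), with an unadjusted limma p of 0.00897. A link between its value and Txnip was not tested. The stress gene Ddit4 differed by -0.17 and the arrestin Arrdc1 by -0.15, both with overlap (-0.068 for Ddit4 without Hif1a-/- replicate 1 and -0.043 for Arrdc1 without WT replicate 1).

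Of 22 measured cell cycle genes tied to quiescence, 14 had a lower and 8 a higher mean, with a median of -0.05, and 0 had an unadjusted limma p under 0.05. Nr4a1, a nuclear receptor of quiescent stem cells, differed by -0.37 with overlap (-0.14 without WT replicate 2), and Egr1, an early response factor also tied to stem cell quiescence, by -0.20 with groups apart. Cdkn1a, the p21 inhibitor that belongs to several of the lists, was not analysed here. Among the lists' genes, those nearest in pattern to Txnip were Rb1, Smad2 and Cdkn1b. Their root mean square distances from Txnip over the 4 arrays, after centring each gene on its mean, were 0.057, 0.062 and 0.066, where Txnip itself varied by 0.18 around its mean. Rb1, the retinoblastoma pocket protein, read 11.22 and 10.88 in WT and 11.04 and 10.70 in Hif1a-/- cells, and Smad2, a receptor Smad, 10.35 and 10.21 in WT and 10.19 and 10.02 in Hif1a-/- cells. With 4 arrays, many genes share an order by chance, so this likeness is a description only.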

How the data were processed

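RNA of sorted leukemia stem cells was measured in 4 samples, 1 array each. The authors deposited log2 expression values in 1 table of 35556 probe sets. Per the submitters' processing notes they were made in Affymetrix Expression Console 1.1 by RMA, which normalizes arrays by quantiles, draws differences of dim genes together and scales out changes of total RNA. Samples were grouped by title. Of the probe sets, 21789 carried 1 symbol, 1621 several and 12146 were unnamed here. The set with the highest mean stood for a gene. Tests used limma 3.58.1 (lmFit, eBayes; R 4.3.3), genotype as the only term, with Benjamini-Hochberg adjustment over 19938 genes at 0.05, and the procedure was tested on simulated data. For 2 against 2 arrays the smallest two-sided p of an exact permutation test is 0.333. The number of arrays limits precision: the median standard error was 0.14. The named genes were all members, Hif1a and the 3 list genes nearest Txnip in pattern. From each of the 9 lists they also held the 3 genes with the smallest p plus any with p under 0.05. Xcr1, Clec9a, Zbtb46, Siglech, Ly6g, Cd34, Flt3 and Kit, from the marker lists, and Cdkn1a and Ly6a were named after values were seen. The members and lists were chosen with earlier results of these data known. Alternatives were 2 filters on low values, 2 scalings, 2 variance models, 2 treatments of probe sets, the replicate number as a block and each array left out.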

Additional observations from a re-analysis of the deposited data

How the results depend on the processing

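In limma, 0 genes of the whole table and 0 of the 10 members had an adjusted p under 0.05, and 334 genes and 0 members an unadjusted p under 0.05. In all 13 alternatives 0 members passed the adjusted threshold. Over the whole table the variance trend called 1 gene and its robust form 2, and the unadjusted count was 216 and 129 with low genes removed below the 25th percentile or below the median, which tests fewer genes, and 1166 with all probe sets, which tests more. The replicate numbers are not said to pair the samples, and the differences between replicates 1 and 2 of the 2 genotypes correlated at -0.0072 over genes; the replicate block called 47 genes, 0 of them members.

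With 1 array left out, the lone sample is assumed to vary like the others, and 2 to 1442 genes were called; the 1442 came without WT replicate 2, against 349 without WT replicate 1 and 2 without either Hif1a-/- array. Unadjusted counts then ran from 94 to 3628 over the table and from 0 to 2 among the members, and 6 to 10 members had a lower mean. Medians ran from -0.13 to -0.034 for the members, -0.12 to -0.022 for FoxO regulators, -0.093 to -0.023 for FoxO targets, 0.0092 to 0.22 for ligands and activation, -0.087 to 0.032 for Bcl6 partners and targets and -0.073 to 0.019 for cell cycle genes. Differences that turned ran from -0.16 to 0.032 for Foxo1, -0.13 to 0.0088 for Foxo3, -0.13 to 0.097 for Tgfb1, -0.28 to 0.053 for Tgfbr1, -0.48 to 0.16 for Smad3, -0.090 to 0.070 for Smad7, -0.010 to 0.72 for Tgfbr3 and -0.60 to 0.032 for Acvrl1. After a second quantile normalization Tgfb1 turned to 0.018 and the receptor median was -0.093; the median of ligands and activation was -0.068 with the filter at the median, which kept 7 genes and removed Bcl6. Scaling moved the share of all genes with a lower mean from 38.6% to 47.2% (second quantile normalization) and 47.1% (centred medians). In these scalings 9 and 10 members kept a lower mean. The share was 41.2% and 46.0% with the filters at the 25th percentile and at the median. Apart from those named, the causes were not tested. RMA values carry no detection calls, so signal over background is unknown for dim genes.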
